A study of Equus caballus with 25 samples.

Results

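Transcripts of 3 lipocalin genes were followed through the oestrous cycle in the endometrium of mares: P19, which encodes uterocalin, LGB1, a beta-lactoglobulin, and RBP4, the plasma retinol-binding protein. All array probes whose RefSeq transcript belongs to one of these genes were taken, which gave 6 probes of the 43603 on the array. P19 (NM_001082509) and LGB1 (NM_001082493) had 1 probe each and RBP4 (NM_001081951) had 4. They are 3 of 620 genes to which a symbol could be given.

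Lipocalins are small secreted proteins that fold into a barrel around a fat-soluble ligand. Uterocalin is secreted by the endometrial glands of the mare under progesterone and carries lipids to the early conceptus, which in the horse stays free in the uterine lumen inside a glycoprotein capsule. Beta-lactoglobulin is best known as a whey protein of milk, and relatives of it are made by the uterus of several mammals. RBP4 carries retinol in blood and is also a secretory product of the uterus in several species. In a current horse annotation (assembly TB-T2T, used for names and gene order only), LGB1 lies 4 genes away from P19 with LCN9, another lipocalin, between them. LGB2, a second beta-lactoglobulin gene, is the next gene after LGB1. RBP4 lies elsewhere, next to PDE6C and FFAR4.

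Endometrial biopsies came from 5 Bavarian Warmblood mares with normal cycles, and each mare gave 1 biopsy on each of 5 days, so that 25 arrays were hybridised. Day 0 was the day of ovulation and was labelled as the ovulatory phase just after it (oestrus). Day 3 was the early luteal phase (early dioestrus), day 8 the mid luteal phase (dioestrus) and day 12 the late luteal phase (late dioestrus). Day 16 was labelled as the start of the next ovulatory phase (early oestrus). No mare was treated, and the biopsies of a mare came from different cycles or lay at least 9 days apart. Levels are log2 intensities relative to the 75th percentile of the same array, so 0 is the level of that percentile, and differences are differences of such log2 levels. The 75th percentile ranged from 698 to 3701 intensity units and 70.3% to 88.1% of spots were well above background. No spot was marked as saturated.

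All 3 transcripts changed over the cycle, and each had its own time course. P19 had its lowest mean at ovulation and its highest in the mid luteal phase. LGB1 also had its highest mean in the mid luteal phase and was at background at ovulation and in 4 of 5 mares on day 16. Days 8 and 12 were not called different in P19 or LGB1 (limma adjusted p = 0.826 and 0.312). RBP4 was lowest on day 3, stayed low on day 8 and was highest on days 12 and 16. All 3 members passed the F test over the days with limma (adjusted p = 8.47e-06 for P19, 6.45e-07 for LGB1 and 2.33e-06 for RBP4), as did 35.8% of the 35770 probes tested. In whole biopsies, fewer cells of a type and less RNA per cell cannot be told apart.

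**Figure D1:**
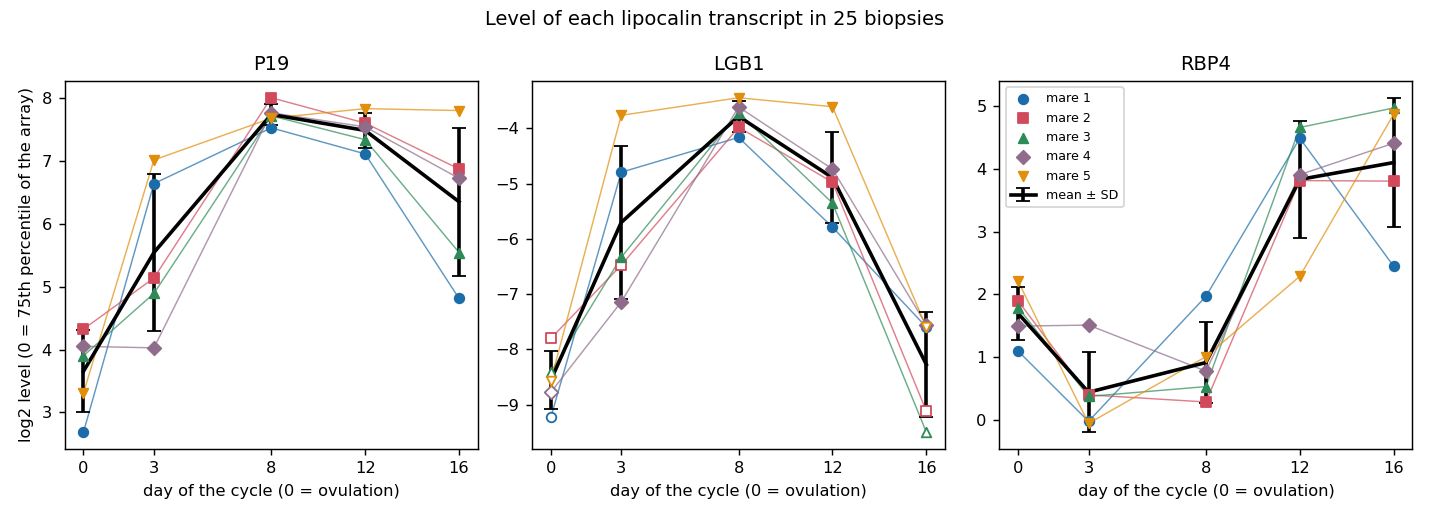
Log2 level relative to the array's 75th percentile (vertical axis) against the day of the cycle (horizontal axis) for P19, LGB1 and RBP4. Coloured symbols joined by lines are the 5 mares, open symbols are spots not well above background, and the black line is the mean with SD. P19 and LGB1 have their highest means on day 8, not called different from day 12, and RBP4 is high on days 12 and 16.

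The makeup of the biopsies could be followed with few markers. ESRP1, a splicing factor of epithelia and the 1 of 12 epithelial markers with a named and tested probe, lay between 2.55 and 3.66 over all arrays and did not pass the F test (adjusted p = 0.621). Of 9 stromal fibroblast markers, the matrix proteoglycans DCN and LUM were measured. Their summed level ranged from 4.90 to 5.48 on day 0, from 3.11 to 4.65 on day 3, from 3.56 to 4.01 on day 8, from 3.66 to 4.32 on day 12 and from 4.18 to 5.20 on day 16. It was therefore low on the days when P19 and LGB1 were high, and its part in their course was not tested. The summed level of 6 of 18 leukocyte markers had daily medians of 3.16, 2.80, 3.07, 3.63 and 3.37 from day 0 to day 16. Among them GNLY and CCL5, of cytotoxic lymphocytes, fell by 1.72 and 1.03 from day 0 to day 8 (limma adjusted p = 6.66e-05 and 0.00283). Of all probes, 11.4% were called lower. Both rose from day 8 to day 12, by 1.23 and 0.97 (adjusted p = 0.0293 and 0.0448), which is the step in which RBP4 rose. In that step 0.626% of all probes were called higher. GZMB, also of cytotoxic lymphocytes and the brightest of the 6, changed by 0.14 and 0.94 in these intervals. It was called in neither (adjusted p = 0.886 and 0.361). None of the 6 but GNLY and CCL5 was called in either interval. The part of these markers in the RBP4 step was not tested. Single markers of other cells had these daily medians in the same order. TAGLN of smooth muscle was at −1.81, −2.52, −2.47, −2.07 and −0.53, highest on day 16. PECAM1 of endothelium was at 0.40, 0.27, 0.19, 0.99 and 0.52. HBA2 of red blood cells was at −1.95, −2.29, −2.55, −2.35 and −3.00, and DYDC1 of ciliated cells at −5.64, −7.04, −6.52, −6.15 and −6.60.

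P19 was well above background on every array. On day 0 its levels in mares 1 to 5 were 2.69, 4.33, 3.90, 4.05 and 3.31, with a mean of 3.65 ± 0.66 (SD, n = 5). On day 3 they were 6.64, 5.14, 4.89, 4.03 and 7.02 (mean 5.54 ± 1.25). Mares 1 and 5 had by then come near their later plateau, while mare 4 stood where it had been on day 0. On day 8 all 5 mares lay close together, at 7.53, 8.01, 7.72, 7.77 and 7.68 (mean 7.74 ± 0.17), and on day 12 at 7.11, 7.60, 7.34, 7.55 and 7.84 (mean 7.49 ± 0.27). On day 16 the mares spread out again, with 4.81, 6.87, 5.54, 6.73 and 7.80 (mean 6.35 ± 1.18). Mare 5 was then still at its luteal level, and mare 1 was below its own value of day 3. In unscaled intensity the mean went from 13317 on day 0 over 121942 on day 3 to 325550 on day 8, 336391 on day 12 and 256351 on day 16.

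From day 0 to day 8, P19 rose 17.0-fold (4.09 ± 0.50 on the log2 scale, SE, limma adjusted p = 4.08e-06). The rise was seen in 5 of 5 mares, with single values from 3.68 to 4.84, and the days did not overlap. For this comparison 10.5% of all tested probes were called higher, and 18.3% had days that did not overlap. Within the slides that held an array of both days it was 4.37 and 5.08.

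The luteal rise of P19 had 2 steps. The first, between day 0 and day 3, was a rise of 1.89 ± 0.50 (adjusted p = 0.0161, where 7.01% of probes were called higher), in 4 of 5 mares and with overlapping days. The changes of mares 1 to 5 were 3.95, 0.81, 0.99, −0.02 and 3.71, so mares 1 and 5 carried most of the mean. Without mare 1 the difference was 1.37 (adjusted p = 0.111) and without mare 5 it was 1.43 (adjusted p = 0.0922). Leaving out only mare 1 or only mare 5 on day 3 gave 1.62 or 1.52 (adjusted p = 0.0586 and 0.0578). The call was also lost with normexp background correction (1.93, adjusted p = 0.0988), with only those days in the model (adjusted p = 0.0777), with mare and slide as terms (2.20, adjusted p = 0.148) and with the array's overall signal as a covariate (1.52, adjusted p = 0.136). Within the 3 slides that held both days the difference was −0.02, 3.71 and 2.21. The second, between day 3 and day 8, was a rise of 2.20 ± 0.50 (adjusted p = 0.00412) in 5 of 5 mares with no overlap, against 6.05% of probes called higher and 14.2% not overlapping. Normexp ended this call (1.80, adjusted p = 0.0640), but not with marked local backgrounds replaced (2.25, adjusted p = 0.00282). Within 4 slides this difference was 2.87, 0.89, 0.66 and 2.88. The largest local background was 772899 on the day 8 array of mare 2, and at most 251 on any other array. Its part in the calls lost with plain normexp was not tested.

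Between day 8 and day 12 the P19 levels differed by −0.25 (95% interval −1.29 to 0.78, adjusted p = 0.826). From day 12 to day 16 the mean was lower in 5 of 5 mares, by 2.30, 0.73, 1.80, 0.82 and 0.03 in the order of mares 1 to 5. The mean difference of −1.14 (95% interval −2.17 to −0.10) did not pass after adjustment over all probes (adjusted p = 0.190). Within 3 slides it was −2.30, −1.80 and −0.82. Day 16 was not called against day 8 either (−1.39, adjusted p = 0.0637), but was without mare 5 (−1.77, adjusted p = 0.0250), without the day 16 array of mare 5 (−1.75, adjusted p = 0.0177), or without the day 0 array of mare 2 and the day 3 array of mare 4 (−1.39, adjusted p = 0.0427).

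Closing the cycle, P19 went down from day 16 to ovulation: it fell by 2.70 ± 0.50 (adjusted p = 0.00404), in 5 of 5 mares and with no overlap. In this comparison 2.41% of probes were called lower and 3.49% did not overlap. The changes of mares 1 to 5 were −2.13, −2.55, −1.64, −2.67 and −4.50. Within 3 slides it was −2.68, −4.50 and −4.19. The 75th percentile of the arrays moved as well, from 698 to 1556 on day 0 and from 875 to 3701 on day 16. With the array's overall signal as a covariate the difference was −2.27 (adjusted p = 0.247), and without mare 2 it was −2.74 (adjusted p = 0.0662). The call was also lost with mare and slide as terms (−2.89, adjusted p = 0.0987) and with only those days in the model (adjusted p = 0.0949). In order of mean level the days were 8, 12, 16, 3 and 0. Of the neighbours in this order only days 3 and 0 were called different, since day 16 and day 3 differed by 0.81 (adjusted p = 0.342).

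LGB1 gave a dim spot, and its time course ran from background to a measurable level and back. At ovulation it was not well above background on any of the 5 arrays, with intensities of 2.59, 3.13, 2.62, 1.98 and 3.95 in mares 1 to 5. On day 3 the intensities were 90.0, 18.0, 22.8, 11.8 and 127, well above background in all mares but mare 2. On day 8 all 5 were well above background, at 90.1, 84.6, 109, 128 and 154. On day 12 they were 35.5, 52.7, 37.0, 70.2 and 178, again above background in all 5. On day 16 they had dropped to 4.52, 5.02, 2.69, 19.7 and 10.3, and only the spot of mare 4 was well above background. Mares 1 and 5 were thus the high ones on day 3, as for P19, and mare 5 was highest on days 8 and 12.

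On the log2 scale the LGB1 means were −8.56 ± 0.52 on day 0 (SD, n = 5), −5.70 ± 1.38 on day 3, −3.78 ± 0.29 on day 8, −4.89 ± 0.82 on day 12 and −8.27 ± 0.95 on day 16. Values at background have no order, so day 0 and day 16 cannot be ranked. Differences that involve day 0 are given with a bound, and those that involve day 16 also with levels raised to the floor of their array. The bound sets the mean of the brighter day against a floor for each day 0 array, which is the dimmest signal there that the scanner software still marked as well above background. It is approximate and carries no sampling error, since a spot above the floor need not be well above background. On day 3 LGB1 in mare 2 lay at −6.47, over a floor of −6.66, and was not well above background.

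From day 0 to day 8 LGB1 rose in 5 of 5 mares with no overlap (fitted difference 4.78 ± 0.53, adjusted p = 9.29e-07), with a bound of 7.48-fold for the mean. Of all probes, 10.5% were called higher and 18.3% did not overlap. With every level under its array's floor raised to that floor, the difference was 2.90 (adjusted p = 9.56e-05). With normexp background correction, whose offset of 50 exceeds this spot's intensity on every day 0 and day 16 array, it was 1.44 (adjusted p = 0.0638), and 0.84 after marked local backgrounds were replaced (adjusted p = 0.0348). Within 2 slides it was 5.12 and 5.62. Against day 0, day 12 had a bound of 3.47-fold for the mean and was higher in 5 of 5 mares with no overlap (fitted difference 3.67 ± 0.53, adjusted p = 3.41e-05). In that comparison 9.36% of probes were called higher, 8.53% were called lower and 14.4% did not overlap. That call was lost with both forms of normexp (0.10 and 0.16, adjusted p = 0.935 and 0.720).

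The first step of LGB1, from day 0 to day 3, had a bound of 1.98-fold for the mean only (fitted difference 2.86 ± 0.53, adjusted p = 0.00158). Of all probes, 7.01% were called higher. All 5 mares were higher on day 3, without overlap (7.80% of probes), but against day 0 values at background. The day 3 levels of mares 2 and 4, −6.47 and −7.14, lay under the floors of their day 0 arrays (−5.79 and −7.03). No rise is bounded in these mares. The changes in mares 1 to 5 were 4.44, 1.33, 2.08, 1.64 and 4.81. Here the size and the call rest on values at background. With levels raised to the floor the difference was 0.98 (adjusted p = 0.166), and with normexp the sign turned (−0.03 and −0.06, adjusted p = 0.974 and 0.889). Within 3 slides it was 1.64, 4.81 and 2.90.

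From day 3 to day 8, where LGB1 was measured on 9 of 10 arrays, it rose by 1.92 ± 0.53 (adjusted p = 0.0155), in 5 of 5 mares with overlapping days. The changes were 0.63, 2.50, 2.62, 3.53 and 0.32 in mares 1 to 5, smallest in the mares that were already high on day 3. Without mare 2, 3 or 4 the adjusted p was 0.0837, 0.0840 or 0.127 (1.77, 1.74 and 1.52), and with mare 4 left out on day 3 alone it was 0.0578 (1.56). Normexp gave 1.47 (adjusted p = 0.0711), and 0.89 (adjusted p = 0.0353) with marked backgrounds replaced. With mare and slide as terms the adjusted p was 0.0655 (1.77). Within 4 slides the difference was 2.50, 0.63, 0.32 and 2.72.

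From day 8 to day 12 LGB1 was lower in 5 of 5 mares, but the difference of −1.11 (95% interval −2.19 to −0.02) did not pass (adjusted p = 0.312). Within 3 slides it was −0.99, −1.62 and −1.64. Between day 12 and day 16 LGB1 fell by 3.38 ± 0.53 (adjusted p = 0.000209), in 5 of 5 mares with no overlap. In this step 4.22% of probes were called lower, 3.86% were called higher and 6.56% did not overlap. The changes were −1.81, −4.14, −4.14, −2.82 and −3.99 in mares 1 to 5, and within 3 slides −1.81, −4.14 and −2.82. Since 4 of the 5 day 16 values were at background, this size is uncertain: it was −2.58 (adjusted p = 0.000916) with levels raised to the floor, −0.96 (adjusted p = 0.566) with normexp and −0.97 (adjusted p = 0.0296) with marked backgrounds replaced. By day 16 LGB1 lay below its day 3 level as well, in 5 of 5 mares with no overlap (−2.57 ± 0.53, adjusted p = 0.00192, where 6.96% of probes were called lower and 8.02% did not overlap). That difference was −1.77 (adjusted p = 0.0128) with levels raised to the floor and −0.83 and −0.76 with both forms of normexp (adjusted p = 0.559 and 0.0767), and with only those days in the model its adjusted p was 0.0503. In unscaled intensity mare 4 was higher on day 16 than on day 3 (19.7 against 11.8), and the unscaled days overlapped. The day 16 array of mare 4 had the highest 75th percentile of all, 3701. Day 16 was also called below day 8 (−4.49 ± 0.53, adjusted p = 4.90e-06). That difference was −3.69 (adjusted p = 1.02e-05) with levels raised to the floor, and −2.30 and −1.65 with both forms of normexp (adjusted p = 0.00371 and 0.000187). In order of mean level day 8 came first, then days 12 and 3, then days 16 and 0, which have no order between them. Of the neighbours only day 3 was called different from the days at background, days 12 and 3 differing by 0.81 (adjusted p = 0.298).

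LGB2 (NM_001082494), the gene beside LGB1, had 1 probe that was well above background on 4 of 25 arrays and was not tested. These were the arrays of mare 1 on days 8, 12 and 16 and of mare 3 on day 16. Mean intensities were 6.03, 5.54, 6.76, 11.4 and 5.73 from day 0 to day 16, so no course over the cycle could be read for this gene. Whether the probes of the beta-lactoglobulin genes tell their transcripts apart was not tested.

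RBP4 was well above background on every array with all 4 probes. For the brightest probe the levels in mares 1 to 5 on day 0 were 1.09, 1.89, 1.79, 1.49 and 2.21, with a mean of 1.69 ± 0.42 (SD, n = 5). On day 3 they were −0.03, 0.40, 0.37, 1.51 and −0.06 (mean 0.44 ± 0.64), where mare 4 stood above the others. On day 8 they were 1.97, 0.28, 0.53, 0.77 and 1.005 (mean 0.91 ± 0.65). On day 12 the mares were at 4.49, 3.81, 4.66, 3.91 and 2.29 (mean 3.83 ± 0.94), all above the highest value of day 8, with mare 5 lagging. On day 16 they were at 2.45, 3.81, 4.97, 4.41 and 4.87 (mean 4.10 ± 1.03), with mare 1 low and mare 5 among the high ones. In unscaled intensity the means were 3670, 2662, 3203, 28812 and 48409 from day 0 to day 16.

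The main step in RBP4 was from day 8 to day 12, a 7.57-fold rise (2.92 ± 0.46, adjusted p = 0.00508) in 5 of 5 mares with no overlap. In this interval 0.626% of probes were called higher, 0.470% were called lower and 9.54% had days that did not overlap. The rises of mares 1 to 5 were 2.52, 3.53, 4.13, 3.13 and 1.28, and within 3 slides it was 3.53, 2.52 and 4.13. Without mare 2 the difference was 2.77 (adjusted p = 0.0915) and without mare 3 it was 2.62 (adjusted p = 0.183). Without mare 2, 3 probes of the whole array were called in this comparison, against 392 with all mares. With mare and slide both as terms it was 3.27 (adjusted p = 0.0647).

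The fall of RBP4 after ovulation did not pass: day 3 differed from day 0 by −1.26 (95% interval −2.21 to −0.30, adjusted p = 0.0742), with 4 of 5 mares lower. Mare 4 was the exception at 0.02, against −1.12, −1.50, −1.42 and −2.27 in mares 1, 2, 3 and 5. Without the day 3 array of mare 4 the difference passed (−1.53, adjusted p = 0.0327). Within 3 slides it was 0.02, −2.27 and −0.72. Days 8 and 3 differed by 0.47 (95% interval −0.48 to 1.43, adjusted p = 0.566), with within-slide values of −0.11, 1.99, 1.06 and 0.40. Days 8 and 0 differed by −0.78 (95% interval −1.74 to 0.17, adjusted p = 0.250).

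Day 16 and day 12 differed by 0.27 in RBP4 (95% interval −0.69 to 1.23, adjusted p = 0.775), which hid opposite changes in single mares. Mare 1 changed by −2.04 and mare 5 by 2.59, while mares 2, 3 and 4 changed by −0.01, 0.31 and 0.50. Within 3 slides it was −2.04, 0.31 and 0.50. From day 16 to day 0 RBP4 fell by 2.41 ± 0.46 (adjusted p = 0.00495), in 5 of 5 mares with no overlap. In this comparison 2.41% of probes were called lower and 3.49% did not overlap. Within 3 slides the difference was −2.92, −2.67 and −2.71. The adjusted p was 0.0666 without mare 2 (−2.53), 0.0541 without mare 3 (−2.21) and 0.257 with the array's overall signal as a covariate (−2.09). In order of mean level the days were 16, 12, 0, 8 and 3. Of the neighbours only days 12 and 0 were called different (2.14 ± 0.46, adjusted p = 0.00209). For the fall from day 16 to day 0 the adjusted p was 0.111 with mare and slide as terms and 0.0826 with only those days in the model. The high days were called against both low days: day 12 against day 3 at 3.39 ± 0.46 (adjusted p = 2.06e-05), and day 16 against day 8 at 3.19 ± 0.46 (adjusted p = 5.04e-05). Day 16 against day 3 was at 3.66 ± 0.46 (adjusted p = 2.11e-05). Of all probes, 8.70% were called higher and 9.23% lower on day 12 than on day 3, and 6.89% were called higher on day 16 than on day 3. On day 16 against day 8, 7.91% were called higher and 7.13% lower.

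The 4 RBP4 probes target the same transcript and are not replicates of a day, but they give a check of the measurement. Their levels followed each other closely over the 25 arrays, with a lowest pairwise Pearson r of 0.995 (a description, since the probes share each array). The difference of day 12 from day 8 was 2.92, 2.97, 2.95 and 3.03 in the 4 probes. The other probes gave the same call as the brightest in every comparison.

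**Figure D2:**
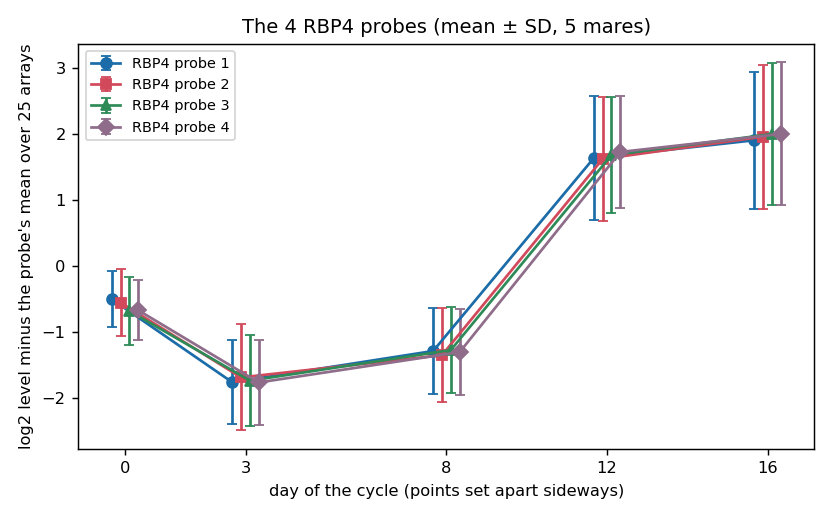
Log2 level of each of the 4 RBP4 probes minus that probe's own mean over 25 arrays (vertical axis) against the day of the cycle. Symbols are means of 5 mares and bars are SD, points set apart sideways; the 4 courses lie on each other, with the step between day 8 and day 12.

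Set side by side, the 3 transcripts parted at different points of the cycle. P19 and LGB1 both rose between day 3 and day 8, and their rises differed by only 0.28 ± 0.08 (SD over 5 mares). In the other steps they moved less alike. The difference between them was −0.97 ± 0.49 between days 0 and 3 and 0.85 ± 0.40 between days 8 and 12, with the same sign in 5 of 5 mares in both steps. From day 12 to day 16 P19 changed by −1.14 and LGB1 by −3.38, a difference of 2.25 ± 1.72 (SD) with the same sign in 4 of 5 mares. With normexp that step was −1.15 in P19 and −0.96 in LGB1, so the difference was not seen there. On day 16 P19 still stood above its day 0 level in all 5 mares while 4 of 5 LGB1 spots were back at background. RBP4 ran apart from both: from day 8 to day 12 it rose while P19 and LGB1 changed by −0.25 and −1.11. The difference between P19 and RBP4 in that step was −3.18 ± 1.29 (SD). These differences between genes are descriptions, and those that involve LGB1 on days 0 and 16 are uncertain because of background. Over the 25 arrays, which share scaling and mare, Pearson r was 0.75 between P19 and LGB1, 0.20 between P19 and RBP4 and −0.35 between LGB1 and RBP4.

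**Figure D3:**
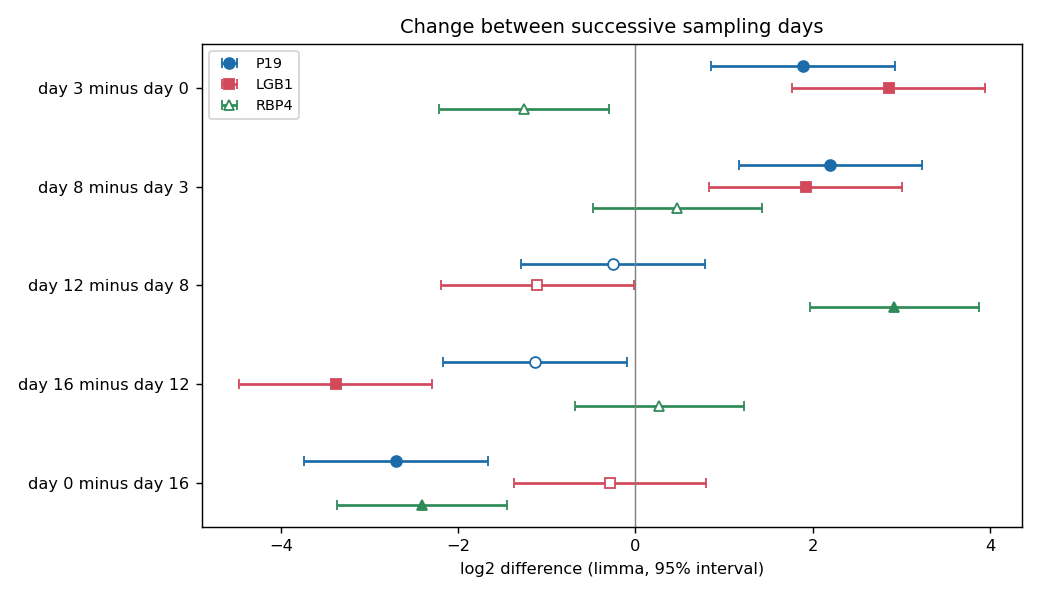
Log2 difference between days in sequence (horizontal axis) with its 95% interval from limma, for P19, LGB1 and RBP4. Filled symbols passed an adjusted p of 0.05 and open symbols did not; P19 and LGB1 rise in the first and second step (the first step of LGB1 turns to −0.03 with normexp), RBP4 rises from day 8 to day 12, and the fall to day 0 from day 16 is seen in P19 and RBP4.

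P19 differed most between mares on day 3 and day 16. On day 3 the order of the mares by P19 from high to low was 5, 1, 2, 3 and 4, that by LGB1 was 5, 1, 3, 2 and 4, and that by RBP4 was 4, 2, 3, 1 and 5. Mares 5 and 1 were thus high in both luteal lipocalins and lowest in RBP4. The same 2 mares had the lowest stromal markers that day. DCN was at 3.09, 4.44, 4.38, 4.36 and 2.92 in mares 1 to 5, and LUM at 0.34, 1.77, 1.99, 1.62 and 0.12. ESR1, the oestrogen receptor alpha, was at 5.86, 7.05, 7.04, 6.87 and 6.54, again lowest in mares 1 and 5. The part of these markers in the spread of the lipocalins was not tested.

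On day 16 mare 1 was lowest in both P19 and RBP4. Its ESR1 level was the highest of that day, at 7.30 against 6.50, 6.47, 5.53 and 6.54 in mares 2 to 5, and its array had the lowest 75th percentile (875). DCN was at 4.83, 4.52, 4.36, 4.98 and 4.04, lowest in mare 5, which was highest in P19. On day 12 mare 5 was highest in P19 and LGB1 and lowest in RBP4. With 5 mares a day these orders are descriptions.

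**Figure D4:**
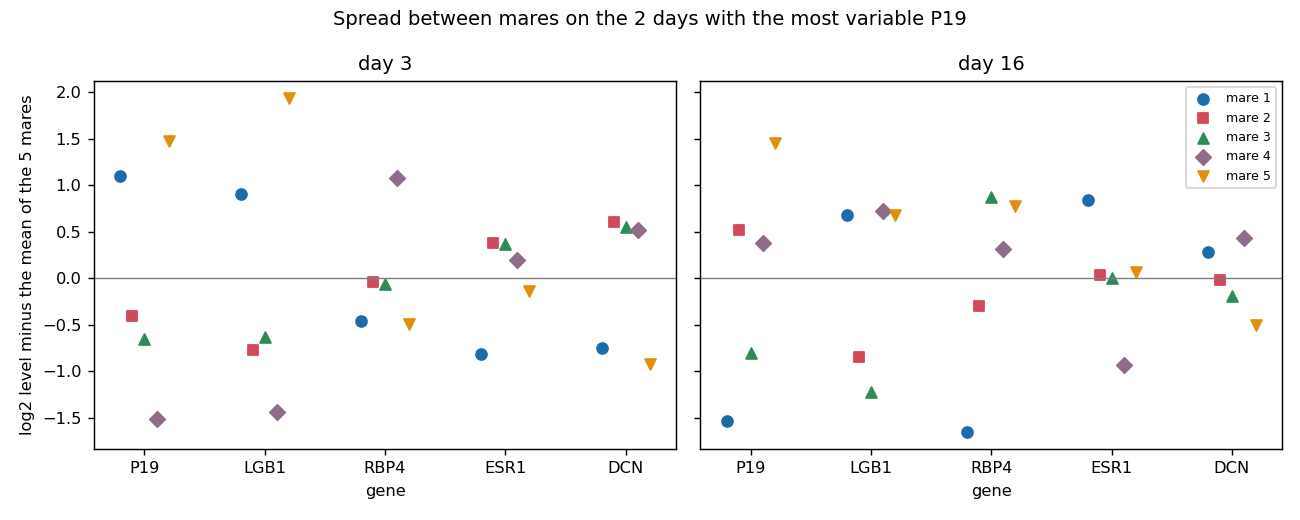
Log2 level of P19, LGB1, RBP4, ESR1 and DCN in each mare minus the mean of the 5 mares (vertical axis), on day 3 (left) and day 16 (right). On day 3 mares 1 and 5 lie above the mean in P19 and LGB1 and below it in RBP4, ESR1 and DCN, and on day 16 mare 1 is lowest in P19 and RBP4.

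The named genes most like each lipocalin were ranked by Pearson r of log2 levels over the 25 arrays among 511 named genes. These are descriptions, and all points share scaling and mare. For P19 they were SOD1, the cytosolic superoxide dismutase (r = 0.854), MMP26, a matrix metalloprotease (0.849), CYP3A89, a cytochrome P450 (0.842), ATP6V0C, a subunit of the vesicular proton pump (0.839), and CTTNBP2 (0.839). MMP26 also had its highest mean on day 8, with means of 4.66, 4.86, 6.53, 6.09 and 5.88 from day 0 to day 16. CYP3A89 was highest on days 8 and 12, as was P19, at −6.30, −4.98, −0.24, −0.63 and −4.72.

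For LGB1 the most alike were FST, the activin-binding follistatin (r = 0.890), SLC11A1, a metal ion transporter (0.838), HK2, a hexokinase of glycolysis (0.832), PLIN2, a coat protein of lipid droplets (0.818), and CYP3A89 (0.815). FST followed it closely, with means of 0.63 ± 0.18, 2.17 ± 0.32, 3.25 ± 0.14, 2.78 ± 0.42 and 0.09 ± 0.34 (SD, n = 5) from day 0 to day 16. FST had its lowest mean on day 16, when LGB1 was back at background in 4 of 5 mares. For RBP4 they were CHGA, chromogranin A of secretory granules (r = 0.928), GM2A, a glycolipid carrier (0.835), and PPARGC1A, a transcriptional coactivator of mitochondrial formation (0.808). NR5A2, a nuclear receptor (0.789), and ARID5B (0.779) came next. CHGA moved over a wider range, with means of −4.70 ± 1.001, −7.72 ± 0.38, −6.79 ± 1.25, −1.52 ± 2.45 and 2.28 ± 1.72. Its day 3 mean lay near the floors of the day 3 arrays (−7.77 to −6.66), so the low end of this range is uncertain. GM2A was at −1.15, −1.85, −0.996, 0.20 and 0.62 on the same days. Ranked by Spearman correlation, 4 of the 5 genes were the same for each of the 3 lipocalins. With each mare's mean removed, 3 of 5 were the same for P19, 3 for LGB1 and 4 for RBP4.

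**Figure D5:**
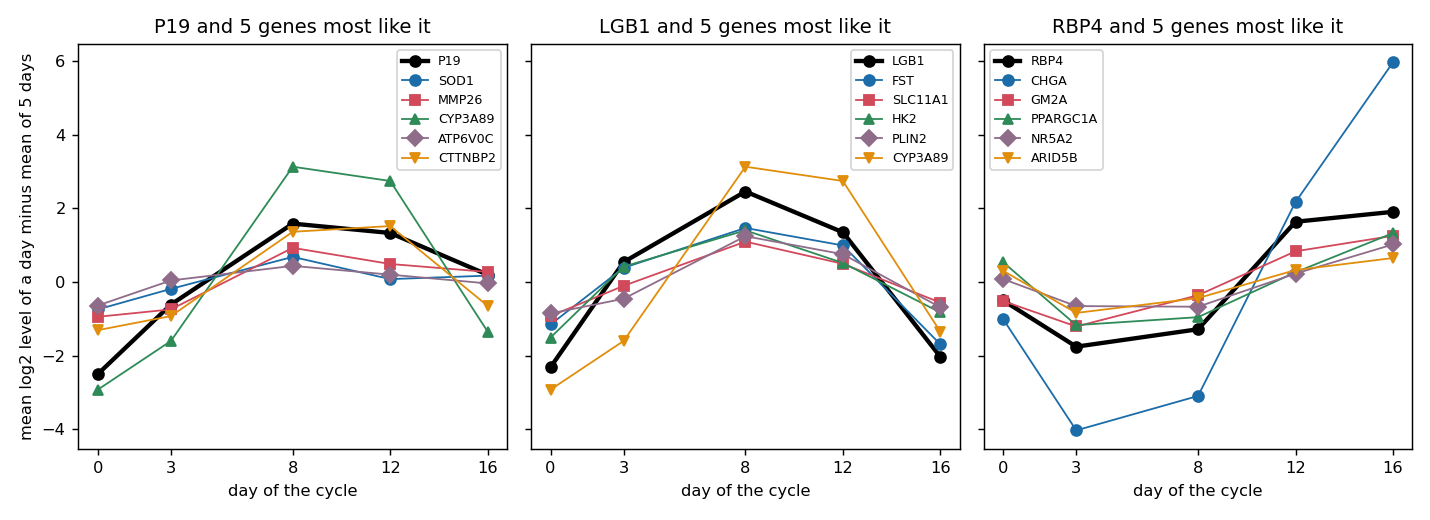
Mean log2 level of a day minus the mean of the 5 days (vertical axis) against the day of the cycle, for P19, LGB1 and RBP4 (black) and the 5 named genes with the highest Pearson r to each (coloured). P19 and LGB1 and their genes peak on day 8 or 12, and CHGA has the widest range beside RBP4.

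Other genes of the same kinds were few among the named probes. Of 26 other lipocalins and small lipid carriers, 2 were tested. GM2A passed the F test (adjusted p = 3.07e-06) and PTGDS, a lipocalin that makes prostaglandin D, did not (adjusted p = 0.0628). GM2A rose between days 3 and 8 (0.85 ± 0.28, adjusted p = 0.0487) and from day 8 to day 12 (1.19 ± 0.28, adjusted p = 0.0414), and from day 16 to ovulation it fell by 1.77 ± 0.28 (adjusted p = 0.00137). Its second step coincided with that of RBP4. The median difference of GM2A and PTGDS from day 8 to day 12 was 0.50, against 0.06 over all probes. PTGDS did not share the rise in that step (−0.20 ± 0.23, limma adjusted p = 0.691).

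Of 36 genes of retinoid uptake, storage, oxidation and response, only RARB, the retinoic acid receptor beta, was tested. It was at −1.48 ± 0.54 on day 0, −2.49 ± 0.42 on day 3, −2.68 ± 0.13 on day 8, −2.40 ± 0.14 on day 12 and −1.89 ± 0.23 on day 16 (SD, n = 5; F test adjusted p = 0.000702). Between ovulation and day 3 it fell by 1.01 ± 0.22 (adjusted p = 0.00461), where 5.66% of probes were called lower. Unlike RBP4, it was not called between day 8 and day 12 (0.28 ± 0.22, adjusted p = 0.549). Whether the 2 genes differ in that step was not tested.

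Of 39 other secretory proteins of the uterus, 8 were tested and 7 passed the F test, against 35.8% of all probes. From day 0 to day 8, 2 rose (GPX3 and SAA) and 2 fell (B2M and CLU), where 10.5% and 11.4% of all probes did. Their median difference was −0.10 against −0.03 over all probes. GPX3, a secreted glutathione peroxidase, rose by 1.98 ± 0.41 (adjusted p = 0.00114). B2M, the light chain of MHC class I, fell by 0.70 ± 0.19 (adjusted p = 0.0112). TIMP1, an inhibitor of matrix metalloproteases, was not called in that interval (−0.70 ± 0.31, adjusted p = 0.113) but between days 12 and 16 it rose by 1.59 ± 0.31 (adjusted p = 0.00188). Of 22 genes of steroid hormone reception and metabolism, 4 were tested and 3 passed the F test, against 35.8% of all probes: ESR1, the progesterone-binding membrane protein PGRMC1 and HSD11B2, which inactivates glucocorticoids. From day 0 to day 8, 1 of these 4 rose and 1 fell, where 10.5% and 11.4% of all probes did, with a median difference of 0.18. PGRMC1 rose by 1.30 ± 0.23 in that interval (adjusted p = 0.000247), with its highest mean, 6.13 ± 0.29, on day 8, as for P19 and LGB1.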

How the data were processed

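Messenger RNA was measured on 25 one-colour Agilent arrays. The authors deposited scanner intensities. Agilent Feature Extraction 10.7.3.1 (per the file headers) gave a background-subtracted processed signal per spot, and the deposited table equalled it. No step between arrays is recorded. Log2 intensities minus each array's 75th percentile were computed, outlier spots left out, and spots of a probe averaged. Tests covered the 35770 of 43603 probes that, on some day, had 4 or more of the 5 arrays well above background. Differences were fitted with limma 3.58.1 in R 4.3.3, day as the term over all arrays, two-sided, with Benjamini-Hochberg adjustment over all tested probes within a comparison and a threshold of 0.05. The code was tested on simulated data. The number of arrays limits the precision. A change in total RNA per biopsy would not be seen.

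Symbols came from RefSeq genes on TB-T2T by accession (1307 probes). The 32565 probes named by Ensembl transcripts and 8192 with other names were not matched, so each list was followed only through its few named members. Of several probes of a gene the one with the highest mean signal was used. Probe, promoter and protein sequences were not analysed here. Named were all members, the 5 genes most alike to each, and up to 4 tested members of each list by F test p. LUM, DCN and ESR1 per mare, the names of SAA and CLU, and the comparison of members with each other, were added after their values were seen. The members and lists were chosen with earlier results of these data known.

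Arrays of the same number come from the same mare, per the labels, and are therefore paired. After subtraction of day means, the median correlation was 0.245 within a mare and −0.0473 between mares, and 0.120 within a mare on different slides. Alternatives were quantile normalization, normexp (offset 50), other filters, mare, slide, both or scan day as terms, the signal level as a covariate, only the days compared, and leaving out each array or mare. Added after seeing the data were leaving out the 2 arrays that stand apart (mare 2 on day 0 and mare 4 on day 3) and raising levels to each array's floor. Arrays lay on 7 slides. Figures were drawn with matplotlib 3.10.9.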

Additional observations from a re-analysis of the deposited data

Results flagged for a closer look

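The second RBP4 probe stood out in mare 4 on day 3. Its log2 level there was 1.856, while the next highest mare was at 0.356 and the other three lay below that. The gap was 0.771 of the whole range of the 5 mares. The brightest RBP4 probe was at 1.51 in the same biopsy. Mare 4 was also the most extreme that day in the brightest probe and in probes 3 and 4, with gaps of 0.71, 0.701 and 0.651. In all, 35 groups of 5 mares (7 probes, 5 days) were looked at in this way, and chance marks about 1 in 20 groups. These groups are not independent, since the RBP4 probes share each array and transcript. The day 3 array of mare 4 is one of the 2 that stand apart over all probes.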

How the results depend on the processing

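All 3 members passed the F test over the days in every alternative that kept all 5 days. The paired analysis, with mare as a replicate block, changed none of the members' calls between days, and neither did quantile normalization, other filters, slide alone or scan day. With the replicate block and slide together as terms, 5 differences lost their call: P19 day 3 minus day 0 (2.198), P19 day 0 minus day 16 (−2.892), LGB1 day 8 minus day 3 (1.771), RBP4 day 12 minus day 8 (3.271) and RBP4 day 0 minus day 16 (−2.406). With the signal level as a covariate P19 day 3 minus day 0 (1.524) and day 0 minus day 16 (−2.266) and RBP4 day 0 minus day 16 (−2.093) lost theirs. With only the days compared the same 3 did, at 1.889, −2.698 and −2.407, and so did LGB1 day 16 minus day 3 (−2.572), where fewer arrays estimate the spread. Normexp moved LGB1 most: day 3 minus day 0 reversed to −0.03237, or −0.05673 with marked backgrounds replaced. Day 0 minus day 16, otherwise not called, reversed to 0.8177 with marked backgrounds replaced (adjusted p = 0.0385). With plain normexp these lost their call: LGB1 day 8 minus day 3 (1.471), day 16 minus day 12 (−0.9636), day 8 minus day 0 (1.439), day 12 minus day 0 (0.09832) and day 16 minus day 3 (−0.8329), and P19 day 3 minus day 0 (1.925) and day 8 minus day 3 (1.804). With marked backgrounds replaced, LGB1 day 12 minus day 0 (0.1551) and day 16 minus day 3 (−0.761) lost theirs. Over the whole array 3709 probes passed the F test with plain normexp, 14542 with marked backgrounds replaced and 12799 in the main fit. Raising levels to the floor gave 0.984 for LGB1 day 3 minus day 0, not called. Without the arrays of mare 2 on day 0 and mare 4 on day 3, LGB1 day 8 minus day 3 was 1.558 and not called. The causes of these lost or reversed calls were not tested. Leaving out single arrays or mares gave from 1.373 to 2.367 for P19 day 3 minus day 0, from −3.083 to −2.249 for P19 day 0 minus day 16 and from 1.516 to 2.403 for LGB1 day 8 minus day 3. For RBP4 it gave from −1.575 to −1.005 for day 3 minus day 0, from 2.618 to 3.33 for day 12 minus day 8 and from −2.821 to −2.189 for day 0 minus day 16. P19 day 12 minus day 3 was not called without mare 2, 3 or 4 (1.81, 1.82 and 1.55). Signal over background limits LGB1 on days 0 and 16 and LGB2 on most arrays.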
